A study of Homo sapiens with 6 samples.

Results

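Syndecans and glypicans are the cell-surface core proteins that carry heparan sulfate, and the 10 genes described here are SDC1, SDC2, SDC3, SDC4, GPC1, GPC3, GPC4 and GPC6, which encode such core proteins, with EXT1 and EXT2, which encode the enzymes that build the chain. They were taken by name from the 57316 gene names of the count files, and all 10 were found once, on a single chromosome each. The cells were THP-1, a human monocytic leukaemia line, made macrophage-like with the phorbol ester PMA at 100 ng/ml for 48 h, which both groups received. For a further 24 h one group then received recombinant human CXCL10, at 100 ng/ml, and the other a control solution. Polyadenylated RNA of 3 control and 3 CXCL10 libraries was sequenced, carrying the replicate numbers 1, 3 and 4 in each group. The labels do not say whether these were separate cultures, so p-values measure the spread between these libraries, which may be technical.

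Syndecans span the membrane and end in a short conserved cytoplasmic tail, whereas glypicans are held at the outer leaflet by a glycosylphosphatidylinositol anchor. Both carry heparan sulfate, a sulfated chain whose negative charge holds chemokines, among them CXCL10, at the cell surface, where they can be presented to their receptors. The chain is started on a xylose-linked tetrasaccharide, elongated in the Golgi by a complex of the EXT1 and EXT2 proteins, and then sulfated by further enzymes.

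The libraries held from 34.8 to 41.0 M gene-assigned reads. Control replicate 4 stood apart: its median Pearson correlation with the other libraries, across genes on the log2(CPM + 1) scale, was 0.992, against 0.995 to 0.997 for the others (genes are not independent replicates). Ribosomal protein genes took 12.6% of its reads and 7.52% to 9.66% elsewhere. For each edgeR log2 fold change below that changed sign or moved by over 1.5 times without that library, the value without it is given. Of 8 macrophage markers, 7 lay between 54.6 and 871 TPM, among them CSF1R at 871 TPM and SPI1 at 501 TPM (a level per exon length, scaled to the same total in each library). CD68 had 0 to 5 reads per library, and 85.6% of its exon length is shared with other annotated genes, reads over which were left out of the counts. Epithelial and T-cell markers summed to at most 0.998 and 0.378 CPM (reads scaled to library size), with EPCAM and CD2 at 0 reads in all 6 libraries. Fibroblast markers summed to 21.7 to 31.8 CPM, nearly all from PDGFRA, with LUM at 0 reads. Endothelial markers summed to 1.05 to 2.12 CPM in controls and 2.505 to 3.48 CPM with CXCL10, most of it VWF. Immature myeloid markers summed to 61.0 to 115 CPM in controls, highest in control replicate 4, and 50.0 to 68.4 CPM with CXCL10. The part of these markers in the values below was not tested.

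The promoters of the set differed in base composition, and 3 are shown: those of GPC4 and SDC4, the most abundant core proteins of the set after SDC2, and that of GPC6, the least abundant. Each is the 250 bases before the RefSeq gene start in GRCh38.p14, written 5′ to 3′ on the gene's strand, with matches to the motifs below in capitals.
SDC4 (chr20:45348425-45348674, minus strand): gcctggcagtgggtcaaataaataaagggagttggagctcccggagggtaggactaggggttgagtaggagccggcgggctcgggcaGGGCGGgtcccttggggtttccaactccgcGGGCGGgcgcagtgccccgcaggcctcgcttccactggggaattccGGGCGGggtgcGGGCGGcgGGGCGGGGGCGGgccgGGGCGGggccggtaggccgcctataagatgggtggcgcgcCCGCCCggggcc
GPC4 (chrX:133415490-133415739, minus strand): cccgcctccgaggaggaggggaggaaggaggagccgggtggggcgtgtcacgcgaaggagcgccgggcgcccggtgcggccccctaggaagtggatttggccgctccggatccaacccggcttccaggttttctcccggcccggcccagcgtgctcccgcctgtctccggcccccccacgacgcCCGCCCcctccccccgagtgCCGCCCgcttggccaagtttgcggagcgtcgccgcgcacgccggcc
GPC6 (chr13:93226557-93226806, plus strand): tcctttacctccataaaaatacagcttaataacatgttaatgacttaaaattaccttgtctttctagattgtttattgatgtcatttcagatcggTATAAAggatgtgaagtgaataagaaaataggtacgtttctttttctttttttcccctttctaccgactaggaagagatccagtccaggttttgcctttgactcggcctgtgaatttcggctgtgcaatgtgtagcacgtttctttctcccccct
The capitals mark the GC box GGGCGG and the TATA box TATAAA on either strand, with overlapping matches of a motif counted separately. SDC4 held 8 GC boxes, GPC4 held 2 and GPC6 held none, while GPC6 alone of the 3 held a TATA box match. G and C made up 73.6% of the SDC4 window, 76.0% of that of GPC4 and 37.6% of that of GPC6, against a median of 58% over 35116 RefSeq promoter windows of the same length. A GC box was found in 42.6% of those windows and a TATA box in 10.7%. The AP-1 site TGACTCA, the cyclic AMP response element TGACGTCA and the E-box CACGTG had no match in these 3 windows; they occur in 4.203%, 1.65% and 6.34% of all windows. Windows were examined for 7 of the 10 genes and not for SDC2, GPC3 and EXT1, whose promoters are therefore not described. Among the windows not shown, that of GPC1 (2.57 TPM) had 84% G and C and 4 GC boxes. The SDC3 window (14.5 TPM) had 83.6% and 5. SDC1 (23.1 TPM) had windows of 66.4% and 75.2%, with 1 GC box each. EXT2 (37.9 TPM) had windows of 52.4%, 69.6% and 70%. The one of 52.4% held a TATA box match and no GC box, and the others held 2 GC boxes each. Whether composition goes with level was not tested. A match is a run of letters, not a site shown to be bound.

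SDC2 transcripts outweighed those of all other core proteins in these cells. Per exon length, SDC2 stood at 1416 ± 81.9 TPM (SD, n = 6), rank 80 among the 16531 genes tested. GPC4 followed at 153.9 ± 29.1 TPM and SDC4 at 94.4 ± 14.6 TPM. In every library SDC2 lay 8.20 to 13.3 times above GPC4, the highest ratio being that of control replicate 4, and it made up 80.4% to 85.7% of the summed TPM of the 8 core proteins. The ranges of GPC4 (100.1 to 184.03 TPM) and SDC4 (68.1 to 112.7 TPM) overlapped over the 6 libraries, yet GPC4 was the higher of the pair in each of the 6.

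Below these, EXT2 measured 37.9 ± 5.05 TPM, GPC3 24.5 ± 2.21 TPM, SDC1 23.1 ± 4.25 TPM and SDC3 14.5 ± 3.04 TPM. GPC3 and SDC1 were not separated, since GPC3 was above SDC1 in 3 of 6 libraries. The lowest 3 were EXT1 at 3.20 ± 0.576 TPM, GPC1 at 2.57 ± 0.231 TPM and GPC6 at 2.06 ± 0.645 TPM, neighbours whose ranges overlapped, although EXT1 was above GPC1 in 6 of 6 libraries. In TPM, EXT2 stood 10.9 to 13.2 times above EXT1, its partner in the complex, in the 6 libraries. That ratio depends on the annotated exon lengths, 5286 bases for EXT2 and 8325 for EXT1. In reads, EXT2 had 1956 to 2861 per library and EXT1 had 234 to 414. GPC4 supplied 78.8% to 86.1% of the summed TPM of the glypicans of the set (GPC1, GPC3, GPC4 and GPC6).

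**Figure D1:**
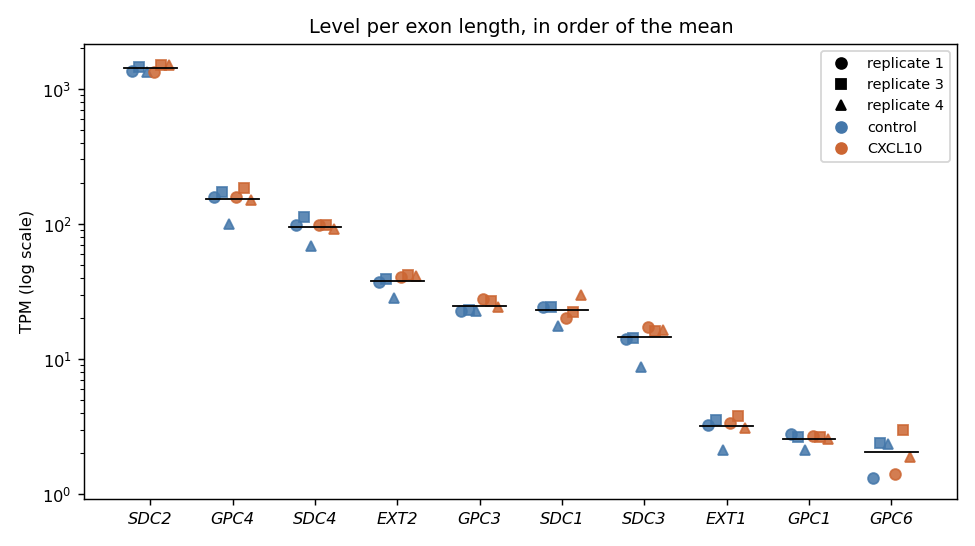
Level of each gene per exon length (TPM, log axis) in the 6 libraries, ordered by the mean over libraries (black line). SDC2 lies near 1416 TPM, above GPC4 and SDC4, while EXT1, GPC1 and GPC6 lie near 2 to 3 TPM.

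The comparison of CXCL10 with control asks whether a day with a heparan sulfate-binding chemokine is accompanied by other transcript levels of its surface carriers. None of the 10 genes passed edgeR's quasi-likelihood test, with adjusted p from 0.733 to 0.988, and 0 of 10 had an unadjusted p under 0.05. Over all 16531 genes tested, 0% passed after adjustment, and 7.14% (1181 genes) had an unadjusted p under 0.05. By DESeq2 0 genes passed and 1211 had an unadjusted p under 0.05; by limma-voom 0 passed and 1182 did, and neither tool called any of the 10. Without control replicate 4, edgeR likewise called none of the 10. The log2 fold change was above 0 for 5 of the 10 genes, where 54% of all genes lay above 0, and the median of the 10 was 0.01, against 0.02 over all genes. In no member did the 3 CXCL10 libraries lie on one side of the 3 controls in TMM-scaled CPM, which they did for 12.2% of all genes. In bulk RNA of this kind, fewer cells with a transcript and less of it per cell cannot be told apart.

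The intervals limit how large a difference can be between these libraries, for each gene singly. Their width rests on the spread between libraries, which may be technical. All 10 of the 95% intervals, on the log2 scale, ran between -1 and 1, that is, inside a 2-fold change either way, as did 74.4% of those of all genes. For 8 of the 10 the interval lay inside 1.5-fold either way, the exceptions being SDC3 and GPC6, against 46.5% of all genes. These intervals are of the fit over all 6 libraries. Single libraries moved some estimates, that of GPC6 to -0.41 ± 0.30 (SE) without CXCL10 replicate 3.

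**Figure D2:**
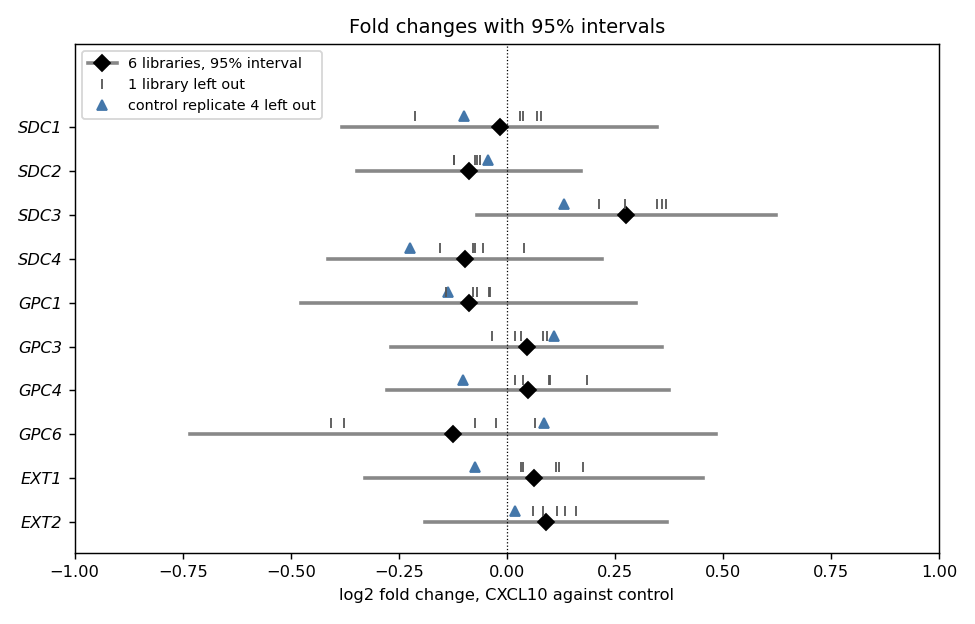
Log2 fold change of each gene, CXCL10 against control, over 6 libraries (diamonds) with its 95% interval (grey lines), and the values with 1 library left out (ticks; triangles without control replicate 4). All intervals cross 0 and stay between -1 and 1.

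Among the syndecans, SDC2, a heparan sulfate core protein first described in fibroblasts, varied least. Its libraries measured 1927, 2017 and 2133 CPM in control replicates 1, 3 and 4 and 1857, 1864 and 1999.8 CPM in CXCL10 replicates 1, 3 and 4. The groups overlapped, since CXCL10 replicate 4 lay above control replicate 1. The means were 2026 ± 103 and 1907 ± 80.5 CPM (SD, n = 3 each), giving -0.09 ± 0.12 for the log2 fold change (SE, interval -0.35 to 0.17, adjusted p = 0.890 by edgeR), and -0.045 without control replicate 4. On the TPM scale, which does not carry the TMM factors, SDC2 lay the other way, at 1381 ± 62.6 TPM in controls and 1452 ± 95.3 TPM with CXCL10. On that scale the median gene of all those tested was itself 0.18 higher in log2 with CXCL10, and relative to this median SDC2 was at -0.11. SDC1, SDC4, GPC1 and GPC6 were likewise above 0 in TPM and below 0 relative to that median, at -0.05, -0.14, -0.12 and -0.12.

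SDC3, a syndecan known from neural tissue and macrophages, had the largest difference of the 10. Control replicates 1, 3 and 4 measured 34.7, 34.4 and 24.5 CPM, and CXCL10 replicates 1, 3 and 4 measured 41.04, 34.4 and 37.9 CPM. Control replicate 4 was the low library, and CXCL10 replicate 3 sat beside the other 2 controls. The log2 fold change was 0.28 ± 0.16 (interval -0.07 to 0.62, adjusted p = 0.733 by edgeR). Without control replicate 4 it was 0.13, and with each library's trend over gene length removed it was 0.21, neither past the test.

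On the TPM scale the groups did not overlap for 3 genes: SDC3, with 8.81 to 14.3 TPM in controls and 16.1 to 17.1 TPM with CXCL10, GPC3, with 22.5 to 23.1 against 24.2 to 27.6 TPM, and EXT2, with 28.1 to 39.1 against 40.6 to 41.5 TPM. That separation was seen in 17.3% of all genes tested on this scale, 14.7% higher and 2.61% lower with CXCL10. Relative to the median gene, the log2 TPM ratios of SDC3, GPC3 and EXT2 were 0.23, 0.02 and 0.06.

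SDC4, which sits in focal adhesions and binds protein kinase C alpha, measured 88.7, 100.3 and 69.96 CPM in the controls and 87.1, 76.98 and 78.1 CPM with CXCL10, in replicate order. The controls held both the highest and the lowest library. Its log2 fold change was -0.10 ± 0.15 (adjusted p = 0.902 by edgeR), which was -0.22 without control replicate 4 and 0.040 without control replicate 3. SDC1, the syndecan of epithelia and plasma cells, measured 30.3, 30.1 and 24.99 CPM in the controls and 24.6, 24.5 and 35.3 CPM with CXCL10. Here CXCL10 replicate 4 stood above the other 5 libraries, and the group means were nearly the same, at 28.5 ± 2.996 and 28.1 ± 6.18 CPM. The log2 fold change of SDC1 was -0.02 ± 0.17, with a range from -0.21 without CXCL10 replicate 4 to 0.079 without CXCL10 replicate 3. It was -0.099 without control replicate 4 and 0.058 when scaled by library size alone.

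**Figure D3:**
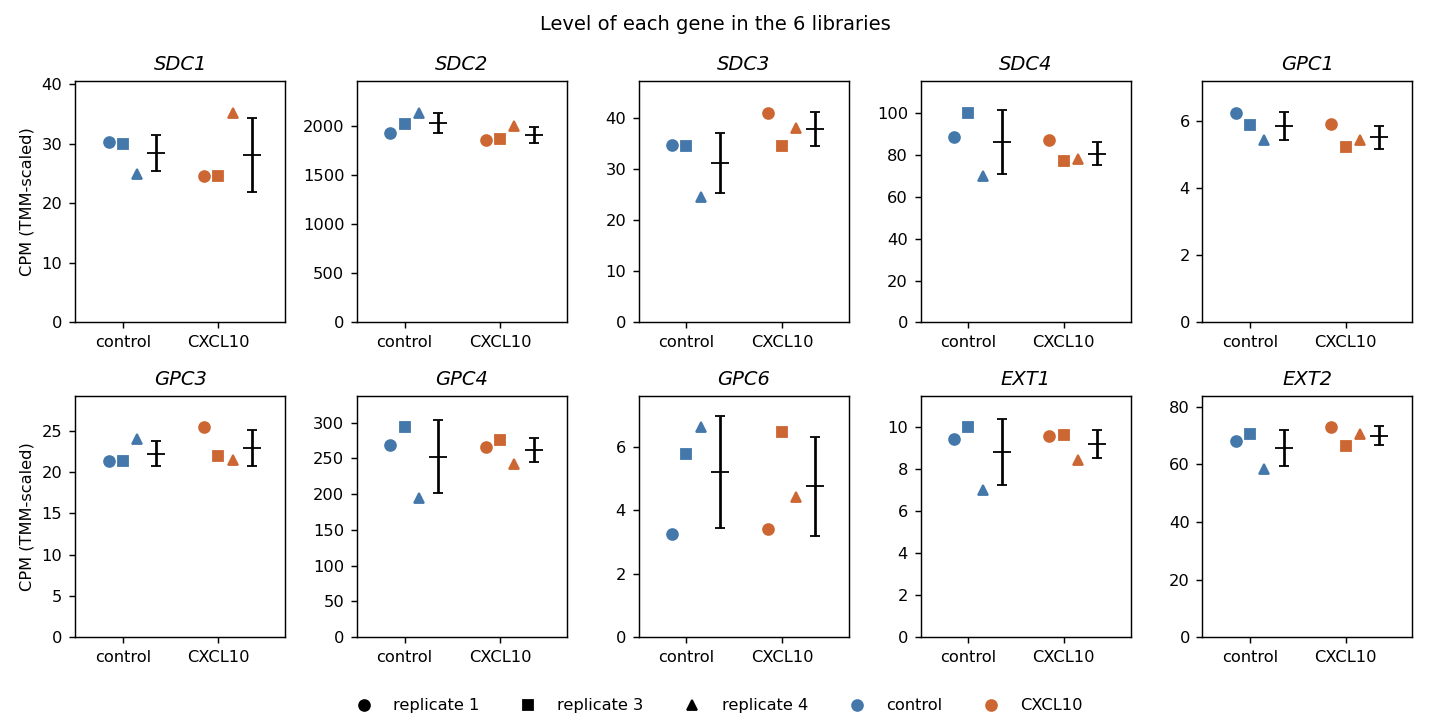
Level (TMM-scaled CPM) of the 10 genes in each library, with the mean and SD of each group (n = 3) as bars to the right of the points. In every panel the control and CXCL10 points overlap, and control replicate 4 (blue triangle) is the lowest library for SDC3, SDC4, GPC4, EXT1 and EXT2.

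The glypicans gave no separation either. GPC4, the main glypican here, measured 269, 293 and 195 CPM in control replicates 1, 3 and 4 and 266, 276 and 243 CPM with CXCL10. Control replicate 4 was again the lowest, and the 5 other libraries lay within 243 to 293 CPM. The log2 fold change of GPC4 was 0.05 ± 0.15 (adjusted p = 0.956 by edgeR), and -0.10 without control replicate 4. GPC3, known as an oncofetal glypican of liver tumours, measured 21.3, 21.3 and 23.98 CPM in the controls and 25.4, 21.96 and 21.4 CPM after CXCL10; the log2 fold change was 0.05 ± 0.15. Unlike GPC4, it was higher in control replicate 4 than in the other controls, and its log2 fold change was 0.11 without control replicate 4 and turned to -0.035 without CXCL10 replicate 1.

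GPC6, a close relative of GPC4, was the most variable gene of the set. It measured 3.23, 5.77 and 6.61 CPM in the controls and 3.40, 6.45 and 4.40 CPM with CXCL10, so the replicate 1 libraries were the lowest of both groups. Its coefficient of variation over the 6 libraries was 30.2%, whereas 125 to 278 reads per library would give 10.8% from counting alone if 2 reads are 1 fragment. The log2 fold change was -0.13 ± 0.28, which ran from -0.41 without CXCL10 replicate 3 to 0.085 without control replicate 4. Exons of GPC6 lie opposite AL354811.1 over 7.17% of their length, and with no strand set, reads over both genes were left out of the counts. GPC1 had about as few reads, 182 to 242 per library, but a coefficient of variation of 6.87%, below the 9.71% that counting alone would give. It measured 6.26, 5.90 and 5.44 CPM in the controls and 5.91, 5.22 and 5.44 CPM after CXCL10; the log2 fold change was -0.09 ± 0.18, and -0.14 without control replicate 4.

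The chain polymerases EXT1 and EXT2 were likewise within the spread of the libraries. EXT1 measured 9.42, 9.97 and 6.996 CPM in the controls and 9.55, 9.60 and 8.41 CPM after CXCL10; the log2 fold change was 0.06 ± 0.18 (adjusted p = 0.955 by edgeR), and -0.07 without control replicate 4. EXT2 measured 67.98, 70.5 and 58.5 CPM in the controls and 72.8, 66.4 and 70.5 CPM after CXCL10; the log2 fold change was 0.09 ± 0.13 (adjusted p = 0.896 by edgeR), and 0.017 without control replicate 4. That library was the lowest for both.

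Several genes of the set had their lowest value in the same library. Control replicate 4 was the lowest of the 6 for 5 of the 10 genes (SDC3, SDC4, GPC4, EXT1 and EXT2) and the highest for SDC2 and GPC6; among all genes tested it was the lowest for 29.3% and the highest for 25.8%. On the log2 scale it lay 0.48 below the mean of the 6 libraries for SDC3, 0.39 below for GPC4 and 0.35 below for EXT1, and 0.46 above for GPC6.

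**Figure D4:**
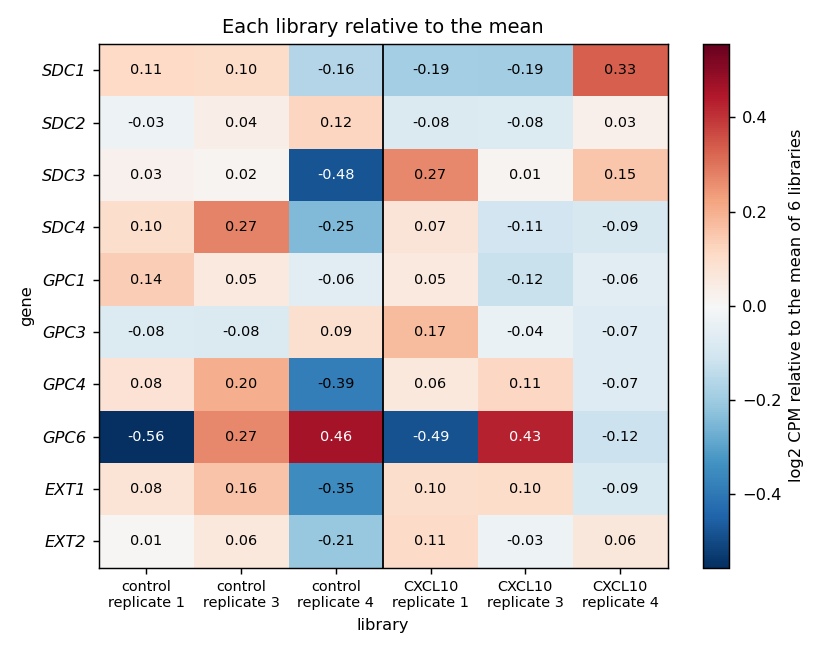
Log2 CPM of each gene (rows) in each library (columns) relative to the gene's mean over the 6 libraries; red is higher, blue lower. Control replicate 4 is at -0.48 for SDC3, -0.39 for GPC4 and 0.46 for GPC6, and both replicate 1 libraries are low for GPC6.

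Among the 10296 genes with a mean of at least 5 CPM, those whose log2 CPM ran most like that of GPC4 over the 6 libraries were KLF5, ERFE and, from within the set, EXT1, with Pearson r of 0.998, 0.992 and 0.992. For SDC2 they were PPCS, MICOS10 and ATP6V1G1, with r of 0.984, 0.983 and 0.982. These coefficients are descriptions over 6 libraries that share control replicate 4, and 175 genes passed 0.9 with GPC4 and 97 with SDC2. Within the set SDC3 and EXT2 ran alike (r = 0.968), while SDC2 ran against SDC3 (r = -0.775).

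Most other genes of heparan sulfate assembly and turnover were detected, and in the same fit as for the 10 genes none passed the test. Of 71 listed pathway genes, 61 were tested, 34 above 0 and 27 below, with a median log2 fold change of 0.02; 0 passed after adjustment by edgeR, and 3 had an unadjusted p under 0.05, beside 7.14% of all genes tested. The groups did not overlap for 6 of the 61, 4 higher and 2 lower with CXCL10, beside 12.2% of all genes. In the linker tetrasaccharide enzymes, 5 of 7 were below 0 (median -0.12). B3GALT6, the galactosyltransferase that adds the second galactose, averaged 71.4 ± 5.05 CPM without and 56.7 ± 8.49 CPM with CXCL10; the log2 fold change was -0.33 ± 0.14 (adjusted p = 0.683 by edgeR), and its groups overlapped. B3GAT3, the glucuronosyltransferase that completes the linker, had a log2 fold change of -0.26 ± 0.14. Both tested members of the EXT-like group were above 0: EXTL3, which adds the first N-acetylglucosamine, at 0.11 and EXTL2 at 0.24. Without control replicate 4 EXTL3 was at 0.020, and without CXCL10 replicate 3 EXTL2 was at 0.035.

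For the enzymes that modify the chain, the N-sulfation and epimerisation group had 4 of 4 tested genes above 0, beside 54% of all genes. It was led in level by NDST1, the main N-deacetylase/N-sulfotransferase, at 22.0 TPM. The log2 fold change of NDST1 was 0.17 ± 0.15, and 0.066 without control replicate 4. NDST2 had 4 to 15 reads per library, and 82.9% of its exon length is shared with another gene. In the O-sulfation group 4 of 6 tested genes were below 0 (median -0.19). HS3ST3A1 and HS3ST3B1, close copies that place the rare 3-O-sulfate, had log2 fold changes of -0.33 ± 0.17 and -0.29 ± 0.15 (adjusted p = 0.702 for both by edgeR); HS3ST3B1 was at -0.17 without CXCL10 replicate 1. HS2ST1 had 0.07 ± 0.17, with 0.13 without control replicate 4 and -0.13 without CXCL10 replicate 3. Another gene shares 9.70% of the exon length of HS2ST1. HS3ST2 and HS3ST6 had no reads in any library. This allows up to 0.146 to 0.173 CPM on library totals without TMM factors (6 reads, or 3 fragments, counting error only). SLC35D2, a nucleotide sugar carrier, stood at -0.63 ± 0.26 in log2 fold change (adjusted p = 0.683 by edgeR) and at -0.32 without control replicate 4, and 46.9% of its exon length is shared with another gene. PAPSS1, which makes the sulfate donor, had 0.25 ± 0.13.

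In that fit no gene of chain release or turnover passed the test. The extracellular endosulfatase SULF1 had 0 reads in all 6 libraries, and SULF2 and the heparanase gene HPSE had log2 fold changes of -0.12 and -0.02. Without control replicate 4 these were -0.045 and 0.091. In the lysosomal group GUSB, the beta-glucuronidase, was the most abundant at 139.9 TPM, and HGSNAT, an acetyltransferase of chain breakdown, had 0.25 ± 0.14 with no overlap between groups, and 0.15 without control replicate 4. Among genes of shedding, MMP14, a membrane-anchored protease, stood at 3829 TPM, above SDC2, with a log2 fold change of 0.12 ± 0.16, which turned to -0.036 without control replicate 4. ADAM17, a sheddase of syndecans, measured 32.6, 37.04 and 13.3 CPM in the controls and 38.6, 46.7 and 52.7 CPM with CXCL10, so all CXCL10 libraries lay above all controls. Its log2 fold change was 0.73 ± 0.28 (adjusted p = 0.683 by edgeR), and 0.40 ± 0.16 (adjusted p = 0.997 by edgeR) without control replicate 4, its lowest library. It passed edgeR's test when all genes were kept regardless of count (adjusted p = 0.00806). That fit called 137 of 30869 genes, and its log2 fold change for ADAM17 was 0.73 ± 0.16. Exons of ADAM17 lie opposite other genes over 13.6% of their length. ADAM10, another such sheddase, had 0.30 ± 0.17, and 0.061 without CXCL10 replicate 3, its highest library. The protease gene MMP7, named after its values were seen, averaged 37.6 ± 13.3 CPM without and 28.5 ± 6.34 CPM with CXCL10, with overlap between the groups. Its log2 fold change was -0.40 ± 0.24 (adjusted p = 0.744 by edgeR). Leaving out control replicate 3 gave -0.19, and leaving out control replicate 4 gave -0.66. The lysosomal NAGLU had -0.21 ± 0.14, with -0.14 without control replicate 4 and -0.13 without CXCL10 replicate 3. Another gene shares 12.9% of the exon length of NAGLU.

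Other carriers ranged from SRGN, the intracellular proteoglycan serglycin, at 482 TPM to GPC2, at 0.568 TPM, with 6 of 9 above 0 and none past the test. HSPG2, which encodes the basement membrane proteoglycan perlecan, averaged 3.03 ± 1.46 CPM without and 4.86 ± 1.11 CPM with CXCL10 (log2 fold change 0.67 ± 0.33, adjusted p = 0.702 by edgeR), with overlap between the groups. Without control replicate 4, its lowest library at 1.35 CPM, the log2 fold change was 0.33. COL18A1, a basement membrane collagen that carries heparan sulfate, had 0.34 ± 0.20, and 0.21 without control replicate 4. Exons lie opposite another gene over 18.4% of their length for COL18A1 and 11.7% for HSPG2. The partner SDCBP, encoding syntenin, which binds the syndecan tail, was at 235 TPM with a log2 fold change of -0.02 ± 0.14, and 0.059 without control replicate 4. The actin crosslinker ACTN4 had 0.28 ± 0.16, and 0.13 without control replicate 4, and 14.2% of its exon length lies opposite another gene. The adaptor GIPC1 had -0.21 ± 0.15, and -0.10 without CXCL10 replicate 3.

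**Figure D5:**
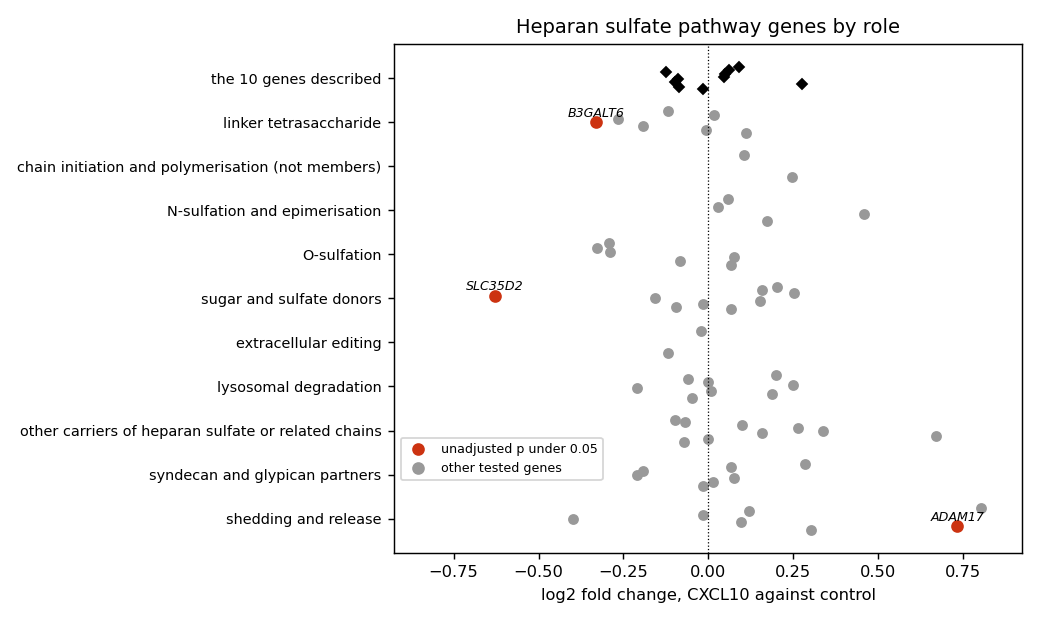
Log2 fold changes, CXCL10 against control, of the 10 genes (diamonds) and of 61 tested pathway genes grouped by role; red points have an unadjusted p under 0.05. These are B3GALT6 at -0.33, SLC35D2 at -0.63 and ADAM17 at 0.73, and none passed after adjustment.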

How the data were processed

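The deposited values are raw counts of reads, 1 file per library: the authors ran featureCounts 2.0.6 over GENCODE 30 exons grouped by gene name, per the file headers. Trim Galore, STAR and build hg38 are named in the submitters' processing notes; no versions of these are given in the sources used here. Per the file headers, both mates of a pair were counted, no strand was set, and reads over several genes or places were left out, which lowers genes that overlap others. Coordinates of promoters are RefSeq's, GRCh38.p14.

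The test was that of edgeR 4.0.16 (R 4.3.3): filterByExpr, TMM factors, a quasi-likelihood fit with group as the only term over 6 libraries, and Benjamini-Hochberg adjustment over 16531 genes with a threshold of 0.05. Standard errors came from the fold change and its F statistic. CPM used TMM-scaled library sizes, and TPM used the deposited exon lengths (the other deposited values, in bases). The test was checked on simulated counts. DESeq2 1.42.0 and limma 3.58.1 were alternatives, with other scalings, filters, halved counts, a replicate block, removal of the length trend and each library left out. The genes, lists and tests were chosen with earlier results of these data known. Named genes were all members and, per pathway list, the most abundant and the 2 with the lowest p. GPC2, MMP7, SULF1, HS3ST2 and HS3ST6 were named after their values were seen. For SDC2 and GPC4, the 2 members with the most reads, the 3 most alike genes were taken.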

Additional observations from a re-analysis of the deposited data

How the results depend on the processing

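Over 11 other settings and 6 left-out libraries, the 10 genes gave 170 fold changes, of which 154 kept their direction and 16 turned it; none passed the test, the lowest adjusted p being 0.248 (SDC4, limma-voom with quality weights, unadjusted p = 0.0395). With quality weights the values that turned were SDC1 at 0.11, GPC4 at -0.13, GPC6 at 0.079 and EXT1 at -0.12; SDC1 was also at 0.058 with library size only, which moved the median of all genes to 0.10, and EXT1 at -0.023 with the length trend removed. With 1 library left out the ranges were -0.21 to 0.079 for SDC1, -0.22 to 0.040 for SDC4, -0.12 to -0.045 for SDC2, 0.13 to 0.37 for SDC3, -0.14 to -0.040 for GPC1, 0.017 to 0.16 for EXT2, -0.035 to 0.11 for GPC3, -0.10 to 0.19 for GPC4, -0.41 to 0.085 for GPC6 and -0.074 to 0.18 for EXT1. The cause was not tested. SDC2, SDC3, GPC1 and EXT2 kept their direction in all 17. Over all genes, edgeR with no filter on low counts called 137 of 30869 and limma-voom with quality weights called 42 of 16531. The main fit called 0 of 16531. Among the pathway genes the unfiltered and the weighted fit each called 1, ADAM17 (0.73) and MMP7 (-0.85, against -0.40) respectively. At thresholds of 0.1 and 0.01 edgeR called 0 with the filter, and 219 and 28 of the 30869 genes without it. The replicate block called 0 genes, none of the 10 among them. Same-numbered libraries correlated at 0.03, 0.02 and -0.05 in their deviations from the group means (replicates 1, 3 and 4). Not every library correlated best with its own number. With 3 libraries per group these correlations cannot decide whether the numbers mark pairs. The numbers were not taken as pairs because no label says what they mark. Depth limits GPC1, GPC6 and EXT1 most, with 125 to 414 reads per library; counting error alone then gives 7.80% to 10.8%.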
